A study of Mus musculus with 4 samples.

Results

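The Ly6 genes described here are Ly6c1, Ly6c2, Ly6a, Ly6e, Ly6g, Ly6i and Ly6d, 7 named genes of the 27998 in the gene table, together with the Ly6C antibody tag counted on the same cells. They were listed by gene symbol, and the list was made with earlier results of these data known. C57BL/6 mice 8 to 12 weeks old were either left in steady state or given 3 once-daily subcutaneous injections of 10 µg GM-CSF, with cells taken 24 h after the last. CD11b+ splenocytes were sorted and profiled by CITE-seq, which counts RNA molecules (unique molecular identifiers, UMIs) and DNA-tagged antibodies in the same droplet. The series held 1 library of 4827 cells in steady state and 1 library of 6804 cells after GM-CSF. With 1 library per condition there is no replicate check and no test, and the effect of GM-CSF and of the library cannot be told apart. Levels are given as CPM, a group's UMIs of a gene per 1000000 of its UMIs, and all 95% intervals cover counting error only.

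Ly6 proteins are small, disulfide-rich domains, most of them held on the outer membrane by a glycosylphosphatidylinositol anchor. Ly6C, encoded by Ly6c1 and Ly6c2, is the surface protein by which mouse classical monocytes (Ly6C high) are separated from non-classical monocytes (Ly6C low). Ly6G marks neutrophils, Ly6a encodes Sca-1, an antigen of stem cells and lymphocytes that interferons raise, and Ly6d marks committed B-lineage cells. Ly6e is broadly expressed and interferon-responsive, and Ly6i is a close relative of Ly6c2 and Ly6a.

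All 7 genes lie in one block of 397 kb on chromosome 15 (GRCm38, the build of the count tables). In order they are Ly6d (74762056 to 74763620, minus strand), Ly6e (74955051 to 74959905, plus), Ly6i (74979534 to 74983430, minus), Ly6a (74994877 to 74998031, minus), Ly6c1 (75044018 to 75048830, minus), Ly6c2 (75108158 to 75111970, minus) and Ly6g (75155240 to 75159126, plus). Because some of these genes are close copies, transcript ends were compared for windows of 100 bases in the last 500 bases, where 3′ libraries are read. In Ly6c2, 83.3% of windows occurred in no other gene and the rest were shared with Ly6c1. In Ly6c1, 89.1% were found in no other gene, the rest being shared with Ly6c2 or Ly6a, and the windows of the other 5 genes occurred in no other gene. Reads from the shared windows could not be assigned to Ly6c1 or Ly6c2, so a small count of either beside a large count of the other is uncertain.

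Upstream sequences were at hand for 3 of the 7 members, and are shown because these neighbours, though close copies, differed in which cells held their RNA. Each run is the 250 bases before the RefSeq start nearest the gene model (GRCm38.p6, 5′ to 3′ on the gene's strand), with capitals for matches to GAGGAA (a PU.1 core) or TTNNGNAA (a C/EBP core) on either strand.
Ly6c1, chr15:75048838-75049087, minus strand: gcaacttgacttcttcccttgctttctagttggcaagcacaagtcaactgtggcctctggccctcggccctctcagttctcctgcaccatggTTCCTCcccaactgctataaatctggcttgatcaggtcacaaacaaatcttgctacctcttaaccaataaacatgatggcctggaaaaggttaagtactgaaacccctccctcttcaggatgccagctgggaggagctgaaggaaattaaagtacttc
Ly6c2, chr15:75111972-75112221, minus strand: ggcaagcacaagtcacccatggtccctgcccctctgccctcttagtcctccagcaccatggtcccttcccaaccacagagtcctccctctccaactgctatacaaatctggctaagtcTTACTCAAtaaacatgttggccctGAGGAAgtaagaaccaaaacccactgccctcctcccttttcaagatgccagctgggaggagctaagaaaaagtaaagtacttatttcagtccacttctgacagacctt
Ly6g, chr15:75155011-75155260, plus strand: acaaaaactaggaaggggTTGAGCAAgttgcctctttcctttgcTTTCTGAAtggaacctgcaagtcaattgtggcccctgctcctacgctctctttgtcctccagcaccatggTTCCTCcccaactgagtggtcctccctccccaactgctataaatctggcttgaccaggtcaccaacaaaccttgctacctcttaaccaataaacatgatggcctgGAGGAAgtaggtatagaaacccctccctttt
Of the aligned bases, 75.9% were identical between Ly6c1 and Ly6c2, 83.5% between Ly6c1 and Ly6g and 80.3% between Ly6c2 and Ly6g, apart from gaps. These pairs had 216, 206 and 173 aligned bases and 68, 88 and 154 gap positions. Other RefSeq starts gave other values, with 73.6 to 84.5% for Ly6c2 with Ly6g, and other numbers of motif matches in both. The other Ly6c1 start gave 59.6 to 62.1% with Ly6c2 and 52.2 to 59.6% with Ly6g. The Ly6c1 run held 1 match to GAGGAA and 0 to TTNNGNAA, the Ly6c2 run held 1 of each, and the Ly6g run 2 of each. Such matches are common, since 23.3% and 36.8% of the 32851 promoter sequences held GAGGAA and TTNNGNAA. The ISRE core (an interferon-response motif, in 2.98% of promoters) did not occur in the 3 runs.

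The cell types are the authors' labels. The authors regrouped the cells labelled MoMacDC_c1, c2, c4 and c5 and progenitor DC as the MoMacDC bundle (2135 cells in steady state, 3940 after GM-CSF), with clusters of its own. Within it, MoMacDC_c1 led in steady state for 5 classical monocyte markers (4775 CPM summed, 218 in MoMacDC_c5) and MoMacDC_c5 for 6 non-classical markers (4802 CPM, 1496 in MoMacDC_c1). The group labelled cDC2-A went against its name, with 18730 CPM of 5 NK cell markers in steady state and 19624 after GM-CSF, and is called by its label only. The 43 steady-state cells of MoMacDC_c4 also held 11806 CPM of these NK markers, against 1.57 CPM in the 595 cells after GM-CSF, so the libraries differ in what this label holds. The median cell had 6894 UMIs in the steady-state bundle and 6654 after GM-CSF, and 8 barcodes occurred in both libraries.

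Ly6c2 RNA was highest in classical monocytes and neutrophils, and after GM-CSF it was lower across the MoMacDC bundle but not in neutrophils. In steady state it stood at 1135 CPM in MoMacDC_c1 (1114 to 1157), 893 in neutrophils (837 to 950), 446 in cDC2-A (403 to 493), 345 in MoMacDC_c4 (293 to 404) and 290 in T cells (252 to 332). The intervals of MoMacDC_c4 overlapped those of both cDC2-A and T cells. MoMacDC_c2 at 237 CPM and B cells at 235 were likewise not separable, and 68 of the 206 B cell UMIs lay in 1 cell. Granulocytes, which had the neutrophil markers S100a8 and S100a9 but fewer UMIs a cell, stood at 98.0 CPM, MoMacDC_c5 at 47.4 and progenitor DCs at 11.3.

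After GM-CSF the order was led by neutrophils at 1338 CPM (1306 to 1371), followed by cDC2-A at 239 (134 to 394), MoMacDC_c4 at 174 (163 to 185), MoMacDC_c1 at 101 (94.5 to 108) and granulocytes at 89.9 (78.4 to 103). The intervals of cDC2-A, on 15 UMIs in 20 cells, and MoMacDC_c4 overlapped, as did those of MoMacDC_c1 and granulocytes. T cells, at 72.0 CPM (29.0 to 148) on 7 UMIs, overlapped cDC2-A, MoMacDC_c1 and granulocytes. MoMacDC_c1 had thus gone from 1135 to 101 CPM and neutrophils from 893 to 1338 CPM, ratios of GM-CSF to steady state of 0.0891 (0.0830 to 0.0954) and 1.5 (1.4 to 1.6). In granulocytes the ratio was 0.919 (0.772 to 1.09), with 1 inside its interval.

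**Figure D1:**
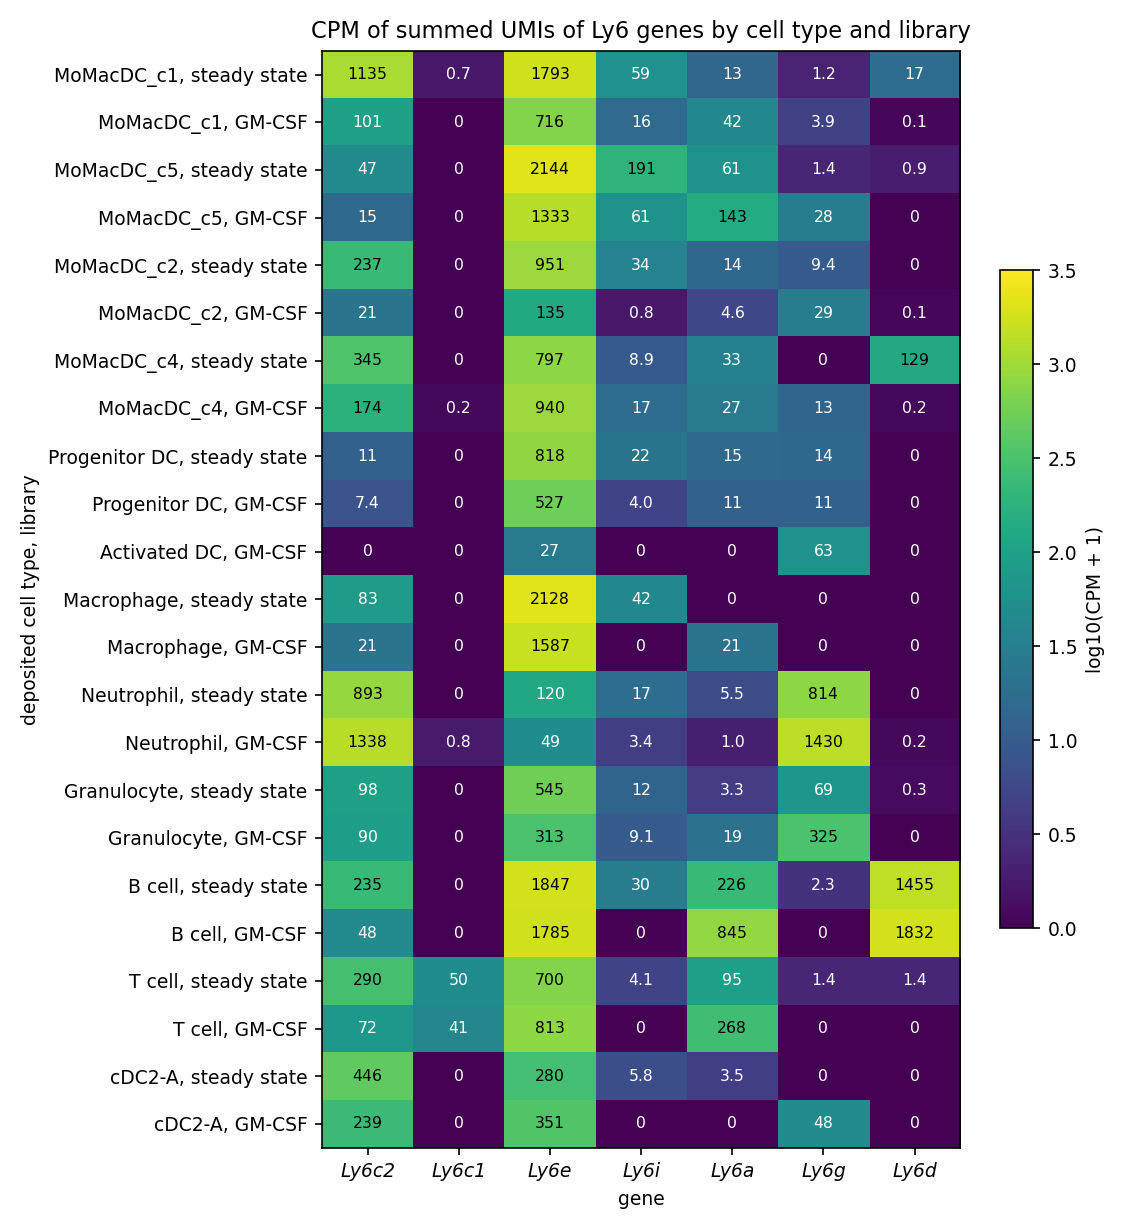
CPM of summed UMIs of each Ly6 gene (columns) in each deposited cell type and library with at least 20 cells (rows), coloured by log10(CPM + 1) with the CPM printed in each field. Ly6c2 was highest in MoMacDC_c1 of the steady state (1135 CPM) and neutrophils (893 and 1338 CPM), Ly6g in neutrophils, Ly6d in B cells, and Ly6c1 in T cells.

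Over the whole bundle, Ly6c2 stood at 766 CPM in steady state (752 to 780, 11457 UMIs) and at 77.4 after GM-CSF (74.2 to 80.8, 2098 UMIs), a ratio of 0.101 (0.0964 to 0.106). The share of bundle cells with a Ly6c2 UMI was 57.8% (55.7 to 60.0) and 14.6% (13.6 to 15.8), and 33.9% and 4.36% once each cell was thinned to 1000 UMIs, which left out 14 and 61 cells. In B cells, taken as the type that should lack the gene, the share was 9.18% at a median of 2976.5 UMIs in steady state and 11.4% at 2741 UMIs after GM-CSF. The shares in MoMacDC_c5 (8.85%) and progenitor DCs (5.92%) in steady state, and in MoMacDC_c2 (3.67%), MoMacDC_c5 (2.88%) and progenitor DCs (1.78%) after GM-CSF, were below these and are not read as expression. Nor are those in T cells (5.13%, 2 cells) and macrophages (4.55%, 1 cell) after GM-CSF. Granulocytes after GM-CSF were also below, at 7.26% and a median of 1229 UMIs. Thinned, their share was 6.10% and that of B cells 5.19%. The granulocyte level after GM-CSF, and the ratio from it, thus rest on a share near that of the reference type.

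Of the 12 bundle clusters with at least 20 cells in each library, 11 had 50 or more Ly6c2 UMIs, and in all 11 Ly6c2 was at least 2-fold lower after GM-CSF, with ratios from 0.00965 to 0.491. The 11 include clusters 7 and 8, whose 31 and 28 steady-state cells held 5057 and 12138 CPM of NK markers against 0.971 and 1.64 after GM-CSF. Their ratios (0.249 and 0.491) thus set unlike cells side by side. Cluster 4 is also among the 11, though Ly6c2 is not read as expression there, with 44 of 102 steady-state UMIs in 1 cell. In clusters 9 and 10, 33 of 174 and 18 of 38 steady-state UMIs lay in 1 cell. In cluster 8, whose ratio of 0.491 was the highest of the 11, it was 46 of 105, so its 2-fold call leans on that cell. In cluster 5 Ly6c2 went from 1248 to 110 CPM, in cluster 2 from 822 to 59.4 and in cluster 6 from 1383 to 573. These 3 clusters carried the classical markers in both libraries, at 4773, 2989 and 7894 CPM in steady state and 1403, 1030 and 3343 CPM after GM-CSF, and the part of that marker fall in the Ly6c2 values was not tested. With both libraries set to the steady-state mix of these 12 clusters, a setting added once the data were known, the ratio for the bundle was 0.183, and in bundle cells called G1 it was 0.0654. Cluster 13 held the highest level, with 3012 CPM and Ly6c2 UMIs in 29 of 29 cells in steady state, against 34.1 CPM in 19 cells after GM-CSF. Cluster 15, with 153873 and 148982 CPM of 8 neutrophil markers, stood at 560 CPM in 7 cells and 507 in 33, a ratio of 0.899 (0.680 to 1.22).

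Among 10860 genes with at least 50 UMIs over both libraries of the bundle, 9.46% were at least 2-fold lower after GM-CSF and 8.66% at least 2-fold higher. Of the 6 Ly6 genes that passed this minimum, 4 were lower (Ly6c2, Ly6e, Ly6i and Ly6d), 1 was higher (Ly6g) and Ly6a was within 2-fold. The call of Ly6g was lost without called doublets, where its ratio was 0.913. That of Ly6d rested on 221 steady-state UMIs, 214 of them in 16 cells, of which 15 had UMIs of B cell markers. Ly6c1, with 8 UMIs, did not pass. The median ratio of the 6 genes, Ly6g and Ly6d included, was 0.240, beside 0.959 over all 10860.

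**Figure D2:**
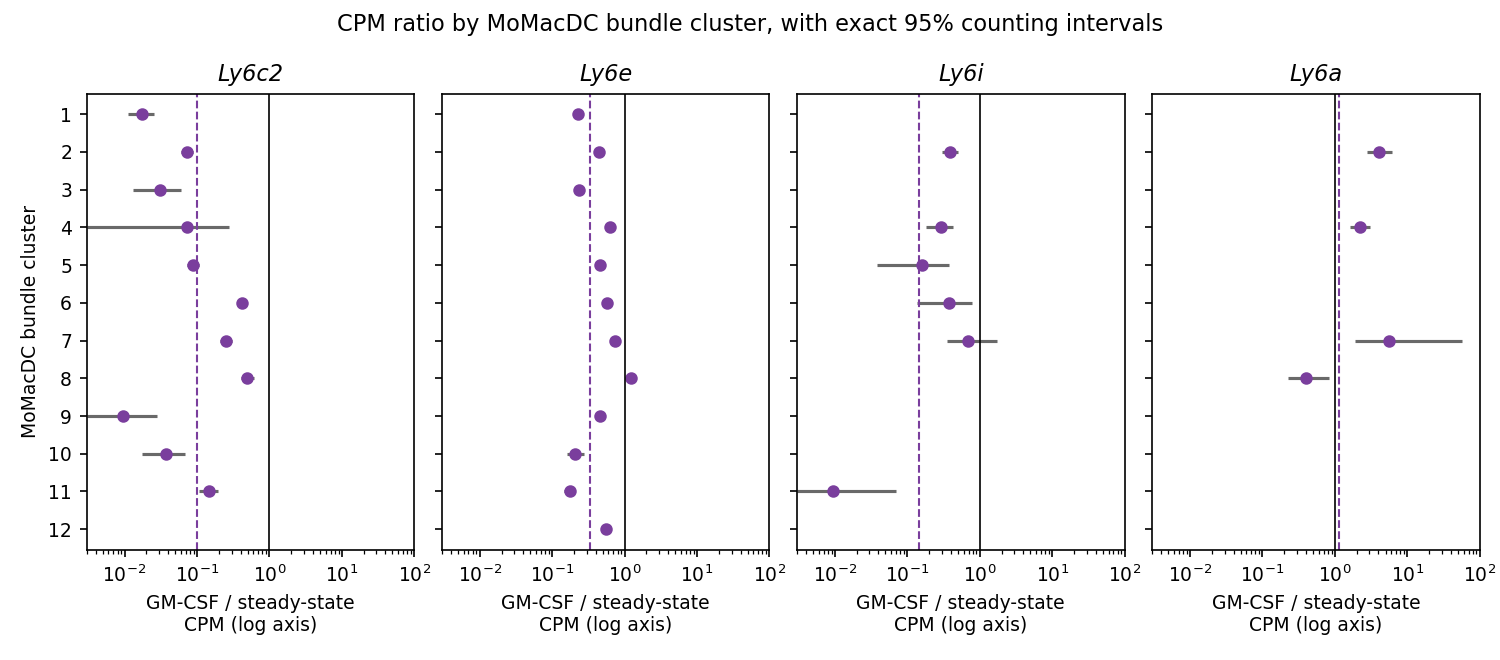
Ratio of GM-CSF to steady-state CPM (log axis) of Ly6c2, Ly6e, Ly6i and Ly6a in each MoMacDC bundle cluster with at least 20 cells in each library and at least 50 UMIs of the gene. Points are ratios with 0.5 counts added to each sum, bars exact 95% intervals ending at the edge of the plot where they reach further, the solid line 1 and the dashed line the ratio over the bundle. All 11 clusters of Ly6c2 lie below 1, while Ly6a lies above 1 in 3 clusters and below 1 in 1.

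The Ly6C tag was lower after GM-CSF in every cell type with at least 20 cells in each library except MoMacDC_c4. Its median count per cell went from 926 (quartiles 577 to 1352) to 47 (19 to 97) in MoMacDC_c1, and from 181.5 (142 to 229) to 140 (99 to 201) in neutrophils. In granulocytes it went from 176 (141 to 220) to 82 (62 to 108), the quartile ranges not overlapping. MoMacDC_c4 stood at 46 and 74. B cells, where Ly6c2 was taken as absent, still had a median of 24 tag counts in steady state and 8 after GM-CSF, at the same median of 532 counts over the 5 tags. The tag level thus also differed between the libraries in cells taken to lack the RNA, and its part in the other differences was not tested.

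Over the bundle the median tag was 488 in steady state (quartiles 53.5 to 1058.5) and 19 after GM-CSF (12 to 62), and the Ly6C tag made up 69.8% and 7.09% of all tag counts. The authors gated CD115hi cells into P-I to P-IV with the Ly6C tag among the gates, so Ly6C by subset is a description only. P-I cells, the Ly6C-positive gate, had a median tag of 899 in 139 steady-state cells and 105 in 187 cells after GM-CSF. Their Ly6c2 stood at 886 and 130 CPM, with UMIs in 85.6% and 34.2% of cells. In P-III and P-IV after GM-CSF (126 and 313 cells), medians of 16.5 and 18 tag counts went with 2.70 and 1.78 CPM of Ly6c2.

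**Figure D3:**
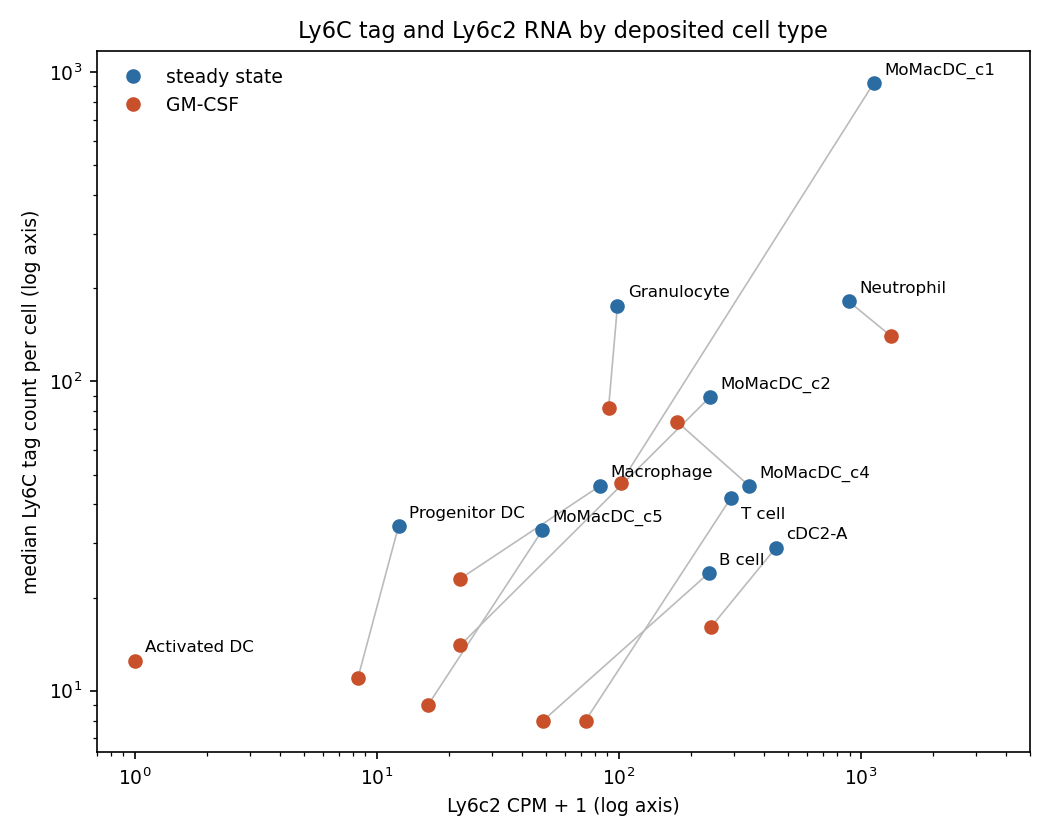
Median Ly6C tag count per cell (vertical, log axis) against Ly6c2 CPM + 1 (horizontal, log axis) for each deposited cell type with at least 20 cells, in steady state (blue) and after GM-CSF (orange), with a line joining both libraries of a type. MoMacDC_c1 moved from 1135 CPM and 926 tag counts to 101 CPM and 47 counts, while neutrophils moved to higher CPM and a lower tag.

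Cell by cell, Ly6c2 was the gene whose UMIs tracked the Ly6C tag most closely in the steady-state bundle. Its Spearman rho with the tag was 0.803 over 2135 cells, first among 8074 genes found in at least 5% of these cells, whose median rho was 0.0743. The next were Lyz2, lysozyme (0.801), Npc2 (0.763), Fn1, fibronectin (0.752), and F13a1, a classical monocyte gene (0.725). After GM-CSF the rho of Ly6c2 was 0.505 over 3940 cells, ninth of 8130 genes (rank 9), behind Lyz2 (0.640), Tgfbi (0.547), Msrb1 (0.546), Gsr (0.538) and C3 (0.536), the 5 highest. The lowest after GM-CSF included the MHC class II genes H2-Eb1 (-0.335), H2-DMb2 (-0.286) and H2-Ab1 (-0.275). Cells of a library share depth, and the summed UMIs of a cell themselves had a rho of 0.457 with the tag in steady state and 0.289 after GM-CSF. Thinned to 1000 UMIs a cell, the rho of Ly6c2 was 0.588 and 0.288, and among cells with at least 1 Ly6c2 UMI it was 0.537 in steady state.

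Ly6c1 had rho of 0.0505 and 0.0107, with UMIs in 5 and 1 cells of the bundle, too few to show a relation. Ly6e had rho of 0.470 and 0.473 (rank 94 and 15), whereas Ly6a stood at -0.120 in steady state and 0.123 after GM-CSF. Ly6i had -0.0747 in steady state and was found in under 5% of cells after GM-CSF.

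The relation was also seen within clusters that held enough Ly6c2-positive cells. Over the 11 steady-state and 9 GM-CSF clusters with at least 10 such cells, rho ran from 0.245 to 0.746 and from 0.116 to 0.613. Left out were GM-CSF clusters 0, 3 and 9, with rho of 0.0361, 0.0324 and -0.0248, and clusters 4 and 12, with 0.138 and 0.140. Summed UMIs of a cell had the higher rho in steady-state clusters 4 (0.612) and 13 (0.565) and GM-CSF clusters 1 (0.187) and 15 (0.531). They had the lower rho in the other clusters kept. Outside the bundle the rho of Ly6c2 was 0.621 in steady-state cDC2-A cells and 0.576 in steady-state T cells. In steady state and after GM-CSF it was 0.357 and 0.552 in neutrophils, and 0.125 and 0.157 in granulocytes. The rho of a cell's summed UMIs with the tag was higher than that of Ly6c2 in neutrophils (0.448 and 0.562) and granulocytes (0.225 and 0.287).

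At an equal number of Ly6c2 UMIs, the tag was lower after GM-CSF than in steady state. Steady-state bundle cells with 0, 1, 2 to 3, 4 to 7, 8 to 15 and 16 or more UMIs had median tags of 42, 444, 690, 936, 1124 and 1438. After GM-CSF the same classes had 17, 94, 152, 238, 474 and 678. B cells, taken to lack the RNA, also had a lower tag after GM-CSF. The part of such a difference between the libraries in these class medians was not tested. Both libraries rose from class to class, and the class of 0 UMIs, 42.2% of steady-state and 85.4% of GM-CSF cells, was the one with the lowest tag. Depth rose with the class as well, from a median of 5072.5 to 8222.5 UMIs a cell in steady state and from 6436 to 13340.5 after GM-CSF, and its part in the tag was not tested. Seen from the tag, the share of cells with a Ly6c2 UMI was 5.06, 39.3, 88.8 and 98.3% in 4 equal groups of cells of rising tag in steady state and 0.914, 1.93, 7.01 and 48.7% after GM-CSF. The highest group after GM-CSF began at 62 tag counts and the lowest in steady state ended at 53.

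Granulocytes carried the tag with little of the RNA, at 98.0 CPM of Ly6c2 in steady state beside 893 in neutrophils. In steady state 87.6% of granulocytes had 0 Ly6c2 UMIs, and these cells still had a median tag of 172.5. Neutrophils with 0 UMIs, only 10 cells, had a median tag of 148, and bundle cells with 0 had 42. Median depth was 1762 UMIs in these granulocytes, 2767 in these neutrophils and 5072.5 in these bundle cells. A count of 0 is thus weaker evidence of absent RNA in granulocytes. After GM-CSF the granulocytes with 0 UMIs had a median tag of 81. In neutrophils the medians ran from 148 to 369 over the classes in steady state and from 88.5 to 272 after GM-CSF, in neither library rising at each step, while the median depth after GM-CSF rose from 2638 to 10610.5 UMIs.

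**Figure D4:**
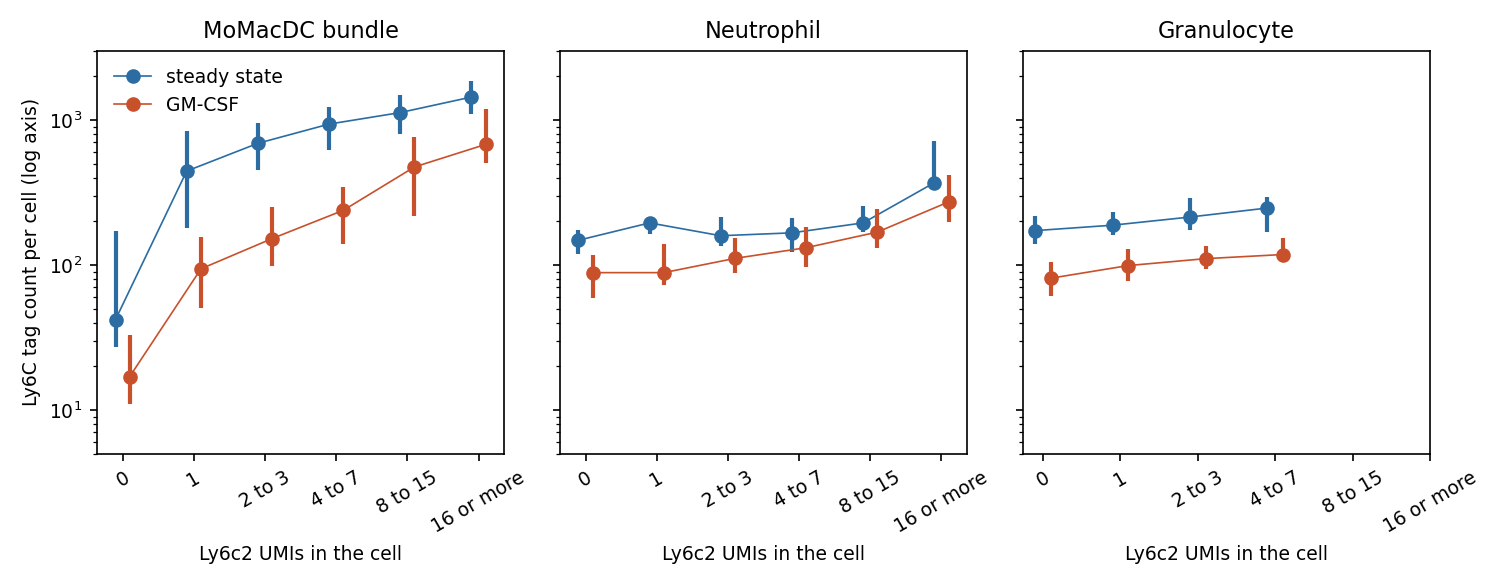
Ly6C tag count per cell (vertical, log axis) by the number of Ly6c2 UMIs in the cell (horizontal) in the MoMacDC bundle, neutrophils and granulocytes, in steady state (blue) and after GM-CSF (orange). Points are medians and bars quartiles, for classes of at least 5 cells. The bundle medians go from 42 to 1438 in steady state and from 17 to 678 after GM-CSF, and granulocytes with 0 UMIs stand at 172.5 and 81.

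Ly6c1 was a T cell transcript in these libraries. Of its 52 UMIs, 36 lay in 21 steady-state T cells and 4 in 4 T cells after GM-CSF, at 49.5 CPM (34.7 to 68.6) and 41.2 CPM (11.2 to 105). Another 7 lay in 5 steady-state MoMacDC_c1 cells, all 5 of which also had Ly6c2 UMIs, as did all 4 neutrophils with a Ly6c1 UMI. Of the 21 steady-state T cells with Ly6c1, 1 had a Ly6c2 UMI.

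T cells were further split by their Cd4 and Cd8a UMIs, a split chosen after the values were seen. In the 50 steady-state cells with Cd4 and no Cd8a UMI, Ly6c1 stood at 112 CPM (71.3 to 169, 23 UMIs), Ly6c2 at 92.9 (55.9 to 145) and Ly6a at 205 (148 to 278). In the 63 cells with Cd8a and no Cd4 UMI, Ly6c1 had 0 UMIs, which allows up to 9.59 CPM at 3 counts. Ly6c2 in these cells stood at 483 CPM (409 to 566) and Ly6a at 19.2 (7.04 to 41.7). The intervals of Ly6c1, Ly6c2 and Ly6a were apart between the groups, while those of Ly6e, at 792 CPM (675 to 924) and 585 CPM (503 to 676), overlapped. The median tag was 43 (26 to 67) in the Cd4 group and 62 (25 to 311) in the Cd8a group. After GM-CSF the same split left 16 and 8 cells with 1 Ly6c1 UMI each, and did not show the difference in Ly6c1.

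**Figure D5:**
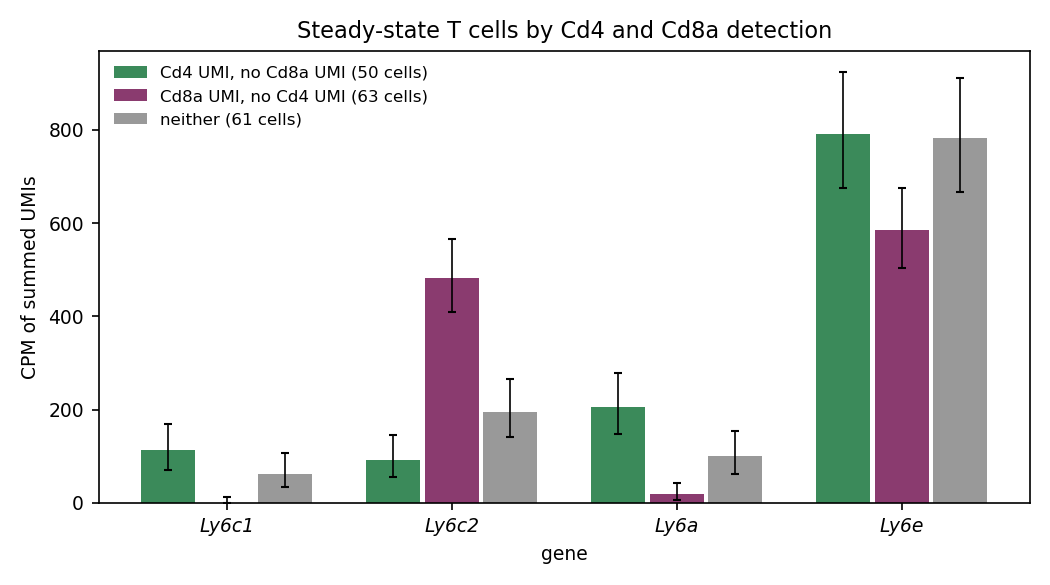
CPM of Ly6c1, Ly6c2, Ly6a and Ly6e (vertical) in steady-state T cells with a Cd4 UMI and no Cd8a UMI (50 cells), with a Cd8a UMI and no Cd4 UMI (63 cells), or with neither (61 cells). Bars are CPM of summed UMIs and whiskers exact 95% Poisson intervals. Ly6c1 stands at 112 CPM in the Cd4 group and 0 in the Cd8a group, where Ly6c2 stands at 483 CPM.

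Ly6e had the most UMIs of the members, and its bundle ratio was nearer 1 than that of Ly6c2. In the bundle it stood at 1643 CPM in steady state (1623 to 1664) and 552 after GM-CSF (543 to 560), a ratio of 0.336 (0.329 to 0.343). It was lower in 11 of 12 clusters and at least 2-fold lower in 7. Cluster 8, where it was higher at a ratio of 1.22 (1.07 to 1.4), held 12138 CPM of NK markers in its 28 steady-state cells and 1.64 CPM in its 352 cells after GM-CSF. Among cell types the steady-state level was highest in MoMacDC_c5 (2144 CPM) and macrophages (2128, not separable), then B cells (1847) and MoMacDC_c1 (1793). MoMacDC_c5 kept 1333 CPM after GM-CSF and MoMacDC_c2 went from 951 to 135, the lowest ratio among the bundle's cell types at 0.142 (0.131 to 0.153). Neutrophils stood at 120 and 49.4 CPM, the lowest of the types with at least 20 cells in steady state, while after GM-CSF the 20 activated DCs stood at 26.9 CPM (5.54 to 78.5). B cells stood at 1847 and 1785, a ratio of 0.967 with 1 inside its interval (0.868 to 1.07). In bundle cells called G1 by the authors the ratio was 0.232.

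Ly6i was highest in MoMacDC_c5, the group with the non-classical monocyte markers. In steady state it stood at 191 CPM in MoMacDC_c5 (173 to 210) and 58.7 in MoMacDC_c1 (53.9 to 63.8), with UMIs in 46.1% and 24.3% of cells, beside 8.67% of B cells. After GM-CSF these levels were 61.4 CPM (39.3 to 91.4) and 15.6 CPM (13.1 to 18.4), ratios of 0.328 and 0.266. Over the bundle, where 27.2% and 4.67% of cells had a UMI, it went from 70.6 to 10.2 CPM, a ratio of 0.145 (0.126 to 0.165), or 0.272 at the steady-state mix of clusters. Ly6i thus ran opposite to Ly6c2 between the monocyte clusters of the steady state, with 211 CPM in cluster 4 and 22.7 in cluster 6, where Ly6c2 stood at 52.6 and 1383 CPM. Cluster 2 had both, with 124 CPM of Ly6i and 822 of Ly6c2. In cluster 4, 6.29% of 5565 genes were at least 2-fold lower and 2.32% higher, and of 4 members tested Ly6c2 and Ly6i were lower and Ly6a higher. Ly6c2 in cluster 4 had UMIs in 8.48% and 0.719% of cells, below the B cell share, with 44 of 102 steady-state UMIs in 1 cell, and is not read as expression there.

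Ly6a did not move with the other members. Its bundle level was 20.9 CPM in steady state (18.7 to 23.4) and 24.1 after GM-CSF (22.3 to 26), a ratio of 1.15 (1.0 to 1.32). Within the bundle it was higher after GM-CSF in MoMacDC_c1 (13.2 to 42.0 CPM, ratio 3.17, 2.58 to 3.92) and MoMacDC_c5 (60.9 to 143 CPM, ratio 2.36) and lower in MoMacDC_c2 (13.8 to 4.62 CPM, ratio 0.331). Cluster 2 showed 16.1 and 65.0 CPM, a ratio of 4.01 (2.77 to 6.06), where 6.92% of 6936 genes were at least 2-fold lower and 3.82% higher, and where Ly6c2, Ly6e and Ly6i were the members that were lower. In P-I cells it stood at 8.24 and 43.7 CPM, a ratio of 5.07 (2.62 to 12.2). This rested on 9 UMIs in steady state and 61 after GM-CSF, 15 of the 61 in 1 cell. At the steady-state mix of clusters the bundle ratio of Ly6a was 2.30, and without cells that had a Cd79a, Cd79b or Ms4a1 UMI it was 1.5, both added once the data were known. In cluster 13, 88 UMIs lay in 10 of 19 cells after GM-CSF, 30 of them in 1 cell, and 0 in 29 steady-state cells.

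Outside the bundle, Ly6a was highest in B cells, at 226 CPM in steady state (196 to 260) and 845 after GM-CSF (735 to 966), with UMIs in 38.8% and 58.2% of cells. Of 3474 genes tested in B cells, 13.8% were at least 2-fold lower and 1.41% higher, and of 4 members Ly6c2 was lower and Ly6a higher. The Ly6c2 ratio in B cells, 0.211, rested on the 206 steady-state UMIs of which 68 lay in 1 cell, and was 0.473 thinned and 0.530 as a mean over cells, where it is no longer 2-fold. T cells stood at 94.9 and 268 CPM, a ratio of 2.85 (1.72 to 4.48). Granulocytes went from 3.27 to 19.5 CPM, a ratio of 5.79 (3.12 to 12.4), on 12 and 47 UMIs. There, 3.20% of 6257 genes were at least 2-fold lower and 7.29% higher, and of 5 members Ly6a and Ly6g were higher and none lower. In neutrophils Ly6a had 6 and 5 UMIs.

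Interferon-stimulated genes were read beside Ly6a, Ly6e and Ly6i, which share that response. Of 14 listed genes, 13 had enough UMIs in the bundle, 11 were at least 2-fold lower after GM-CSF and 0 higher, with a median ratio of 0.423. Over all bundle genes tested, 9.46% were lower and 8.66% higher by this rule. Irf7, the master regulator of type I interferon responses, stood at 160 and 38.6 CPM, Isg15 at 111 and 55.4, and Ifi27l2a at 1478 and 625 CPM. Bst2 (213 and 115 CPM) and Gbp2 (61.7 and 56.4) were within 2-fold. The summed list was lower in every group where it was taken. In the 5 cell types where Ly6a was at least 2-fold higher, its ratios were 0.485 in B cells, 0.390 in granulocytes, 0.689 in T cells, 0.449 in MoMacDC_c1 and 0.598 in MoMacDC_c5. It was also lower in neutrophils (0.617), where Ly6a had too few UMIs to compare. Ifi27l2a alone made up 1478 of the 2844 summed CPM of the steady-state bundle. Gene by gene, 2 of 5 tested in B cells and 1 of 6 in T cells were at least 2-fold lower, against 9 of 13 in granulocytes. Over all genes tested, 13.8% were lower in B cells and 3.2% in granulocytes. That share was not taken in T cells, so their count has no background to be set beside. The part of interferon in the Ly6a values was not tested. Ly6e and Ly6i were lower alongside the list in the bundle, and Ly6a was not.

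Ly6g followed the neutrophil labels. In neutrophils it stood at 814 CPM (761 to 869) and 1430.3 (1397 to 1464), a ratio of 1.76 (1.64 to 1.89), with UMIs in 89.7% and 93.3% of cells. In neutrophils 2.48% of 6489 genes were at least 2-fold lower and 3.62% higher, and of 3 members tested Ly6e was lower and none higher. Granulocytes went from 68.8 to 325 CPM, a ratio of 4.71 (4.09 to 5.46), and from 9.75% to 20% of cells with a UMI, beside 1.02% and 0% of B cells. In the bundle, 46 UMIs in 19 cells and 424 in 100 cells gave 3.08 and 15.7 CPM. Bundle cells with a Ly6g UMI held 84051 and 72297 CPM of the 8 neutrophil markers, against 2392 and 919 in those without. Called doublets made up 7 and 57 of these cells and held 14 and 371 of the UMIs, and without doublets the ratio for the bundle was 0.913 in place of 5.04 (3.75 to 7.06). Cluster 15 held 31 and 297 of the bundle's Ly6g UMIs.

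Ly6d was a B cell gene in both libraries, at 1455 CPM (1376 to 1537) and 1832 (1669 to 2008), with UMIs in 90.3% and 92.4% of B cells and in 0.0518% and 0% of granulocytes. In the bundle it stood at 14.8 CPM in steady state on 221 UMIs and at 0.111 after GM-CSF on 3 UMIs, a ratio of 0.00872 (0.00153 to 0.0222). Of the 221 UMIs, 214 lay in 16 cells with 2 or more each, 11 of them in cluster 16. Of these 16 cells, 15 had UMIs of the B cell markers, 8 of the plasmacytoid DC markers and 7 of both, at a median of 13876 UMIs a cell, and 0 of them were called doublets. The GM-CSF library held 0 bundle cells with 2 or more Ly6d UMIs. At the steady-state mix of the shared clusters, which leaves out cluster 16, the ratio was 0.148.

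The wider Ly6/uPAR family gave few UMIs. Of 33 other listed genes, 29 were in the table, 13 of them without a UMI, and 4 had at least 50 UMIs over both libraries. Plaur, the urokinase receptor, stood at 135 and 39.6 CPM in the bundle, a ratio of 0.294 (0.273 to 0.317), and Cd177, a neutrophil surface protein, at 74.2 and 13.1 CPM, a ratio of 0.177 (0.156 to 0.199). Lynx1 had 99 and Lypd6b 54 UMIs over both libraries. Plaur and Cd177 were the 2 with enough UMIs to compare in the bundle, and both were at least 2-fold lower after GM-CSF. Of all bundle genes tested, 9.46% were at least 2-fold lower.

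Profiles were compared over 23 groups of cell type and library with at least 20 cells. The genes most like Ly6c2 of 8126 genes by Pearson's r of log2(CPM + 1) were Plec (0.741), Tmem165 (0.741), Stxbp5 (0.740), Ranbp9 (0.724) and Thbs1 (0.722). For Ly6a they were Gm8369 (0.838), Ralgps2 (0.832), Polm (0.767), Kpna6 (0.755) and Foxp1 (0.755), and all 5 had their highest level in B or T cells, as Ly6a did. The groups of a library share its depth and background, so these values describe the 23 groups. Between the members, r ran from -0.712 for Ly6e with Ly6g to 0.591 for Ly6a with Ly6e, and was 0.161 for Ly6c1 with Ly6c2.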

How the data were processed

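RNA and 5 antibody tags were counted in CD11b+ splenocytes of 1 steady-state and 1 GM-CSF library. The authors deposited RNA counts (UMIs per gene and cell, Cell Ranger 3.0.2, mm10) and tag counts per cell, after removing cells with under 200 or over 5000 genes or over 15% mitochondrial UMIs. They also deposited the percent of mitochondrial UMIs, and cell types, clusters, subsets and phases made with Seurat 3.6.0 after integrating both libraries. Depth was 22358903 UMIs in steady state (median 3371 a cell) and 35007567 after GM-CSF (median 4916).

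From these, UMIs were summed per group and library and divided by the group's total (Python 3.11.15, numpy 2.4.6, pandas 2.3.3, scipy 1.17.1). Levels have exact Poisson intervals, shares Clopper-Pearson intervals and ratios exact intervals from the binomial share, all at 95%. PCR duplicates are removed by UMIs, and the intervals leave out variation between mice. Ratios had 0.5 counts added to each sum, and genes needed 50 UMIs over both libraries to be compared by the 2-fold rule. Spearman's rho was taken over cells within a library. Doublets were called with Scrublet in scanpy 1.11.5 (141 and 186 cells) and kept in the main values. Scripts were tested on simulated data.

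The text names the 7 members, other family genes with at least 50 UMIs, the 5 genes most like Ly6c2 and Ly6a, the 5 genes with the highest rho in each library, and examples from a list of interferon-stimulated genes, not all of which are reported here by name. The members and lists were chosen with earlier results of these data known. Promoters came from RefSeq (GRCm38.p6), which matched 3 of 7 members.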

Additional observations from a re-analysis of the deposited data

Results flagged for a closer look

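Ly6a was the member whose ratio of GM-CSF to steady-state CPM lay on opposite sides of 1 in different cells, each by at least 2-fold. Among cell types it was higher after GM-CSF in B cells (3.74), granulocytes (5.79), MoMacDC_c1 (3.17), MoMacDC_c5 (2.36) and T cells (2.85), and lower in MoMacDC_c2 (0.331). Among bundle clusters it was higher in clusters 2 (4.01), 4 (2.25) and 7 (5.51) and lower in cluster 8 (0.400). The steady-state cells of clusters 7 and 8 numbered 31 and 28 and held 5057 and 12138 CPM of NK cell markers, against 0.971 and 1.64 CPM after GM-CSF, and 12 of the 13 steady-state Ly6a UMIs of cluster 8 lay in 1 cell. With 1 library per condition the difference between these groups was not tested.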

How the results depend on the processing

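No paired analysis was possible because the groups compared share fewer than 2 replicate numbers. The bundle ratio of Ly6c2 (0.101) was 0.0906 without doublets, 0.0779 thinned to 1000 UMIs a cell, 0.0843 as a mean over cells, 0.108 without mitochondrial and ribosomal protein genes, 0.0879 without clusters 11, 14 and 15, 0.0654 in G1 cells and 0.183 at the steady-state mix of clusters. Ly6e (0.336) was 0.313 thinned, 0.314 as a mean over cells, 0.357 without mitochondrial and ribosomal protein genes, 0.232 in G1, 0.323 without cells with a B cell marker and 0.496 at the steady-state mix. Ly6i (0.145) was 0.196 thinned, 0.0979 in G1 and 0.272 at that mix. Ly6a (1.15) was 0.955 in G1, 1.5 without cells with a B cell marker and 2.30 at that mix. Ly6g (5.04) reversed to 0.913 without doublets, and was 7.89 thinned, 7.48 without the 3 clusters, 7.53 in G1 and 11.7 at that mix. Ly6d (0.00872) was 0.0238 thinned, 0.0233 as a mean over cells, 0.0471 without cells with a B cell marker and 0.148 at that mix. The rho of Ly6c2 with the tag in steady state (0.803) was 0.588 thinned, 0.639 over all cells and 0.537 among cells with a UMI, and after GM-CSF (0.505) it was 0.288 thinned, 0.403 in G1 and 0.608 as Pearson's r of log2 counts. The rho of Ly6c1 in steady state (0.0505) was -0.0394 over all cells. The cause of these shifts was not tested. The cluster mix, the removal of B cell markers and the removal of barcodes in both libraries were chosen after seeing the data.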
